A study of Homo sapiens with 24 samples.

Results

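The cytosolic ribosomal protein genes were described in the Human Cell Cycle dataset, a time course of the human leukaemia line K562. Members were the protein-coding genes whose symbol is RPL or RPS followed by a number, with an optional A, X, Y or L, together with RPLP0 to RPLP2 and RPSA. The rule found 79 genes among the 12285 of the expression table, 47 of the large (60S) and 32 of the small (40S) ribosomal subunit. GENCODE 29 lists 81 genes that meet the rule, and RPL10L, known from testis, and RPL3L, known from muscle, were not in the table. K562 cells, which grow in suspension and have erythroid features, were size-selected by centrifugal elutriation into a synchronous population, grown in RPMI with 10% bovine calf serum and antibiotics, and sampled every 2 h from 0 h to 46 h. Each of the 24 time points is 1 library of total RNA with no replicate, so each value is that of 1 library and differences were set against the same measure elsewhere in the series. The purpose of the study was to identify and correct STRIPEs, time points at which the whole transcriptome departs from its neighbors, and 16 h and 18 h are the clear STRIPEs of this dataset.

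Ribosomal proteins are the structural components that fold onto ribosomal RNA in the nucleolus to make the 2 subunits. The small subunit reads the mRNA and the large subunit joins amino acids. Their mRNAs are among the most abundant and most stable of a growing cell, and they begin with a terminal oligopyrimidine (TOP) tract, a run of C and T that starts with C at the cap and through which mTOR and the binding protein LARP1 set how much of the mRNA is translated.

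The start of the transcript is therefore the sequence that the members are known to share. RefSeq start sites (GRCh38.p14) were found for 63 of the 79 members and 8300 other protein-coding genes of the table. A run of at least 5 C or T beginning with a C within 5 bases of the start lay in 53 members, or 84.1%, against 29.5% of the other genes. A run of at least 8 lay in 69.8% of members and 8.46% of the other genes. The 10 members with a listed start but without such a run included RPS29, RPL9, RPS15 and RPS4X. The share was 83.3% for 12 elongation factor and other known TOP mRNAs with a listed start, but 20.8% for 24 ribosome assembly factors and 23.2% for 69 mitochondrial ribosomal proteins. Below, 30 bases around the start are shown for members at both ends of the response at 16 h and 18 h described later, 5 among the lowest and 5 among the highest, with the run in capitals and the annotated start at base 16.
RPL10: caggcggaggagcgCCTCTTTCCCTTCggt
RPL29: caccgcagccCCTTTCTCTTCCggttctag
RPS19: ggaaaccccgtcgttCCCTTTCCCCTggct
RPS9: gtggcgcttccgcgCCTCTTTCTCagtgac
RPL13A: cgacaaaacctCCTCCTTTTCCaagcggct
RPL14: gggcgggtcttCTTCCTTCTCgcctaacgc
RPL28: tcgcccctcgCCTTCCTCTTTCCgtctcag
RPL26: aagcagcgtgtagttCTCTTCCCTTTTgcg
RPS28: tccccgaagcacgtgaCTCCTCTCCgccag
RPS25: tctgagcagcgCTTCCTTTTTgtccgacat

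The first of these, RPL10, lies at chrX:154398362-154398391 on the plus strand and the last, RPS25, at chr11:119018329-119018358 on the minus strand. Counted from a C no more than 5 bases from the start, runs were 9 to 13 bases long in all 10. This held in the genes far below their flanks as in those above. In RPL29, RPL13A and RPL14 the stretch of C and T goes on upstream of the counted run, and those bases are not in capitals. Among members with a listed start, the median distance from the flanks at 16 h and 18 h was -0.83 (log2) for the 53 with a run and -0.47 for the 10 without. At least 2-fold below were 18 of the 53 and 3 of the 10, and above were 1 and 0. The 16 members without a listed start had a median of -0.48, with 5 below and 1 above. Values for other genes with and without a run are not given here. A match describes these letters in this window and is not evidence of a regulated site.

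The members were among the most abundant mRNAs of K562 cells. FPKM scales the fragments of a gene by its length and by the size of the library, so that levels can be compared between genes. The median of the members' mean FPKM was 628, against 13.7 for all genes, and 18 members exceeded 1000 FPKM. Members made up 0.643% of the genes and a median of 10.7% of the summed FPKM over the 22 libraries other than 16 h and 18 h. The large-subunit genes had a median of 689 FPKM and the small-subunit genes 583.

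Among the members of highest level were RPL11, RPL8, RPS18 and RPS24. RPL11, which with RPL5 carries 5S ribosomal RNA into the ribosome and can bind the p53 regulator MDM2, had a mean of 1712 FPKM and a range of 1560 to 1943 over the 22 other libraries. RPL8, a core protein of the large subunit, had a mean of 1644 FPKM and a range of 1495 to 2269. These ranges overlap, and so do those of RPS18 (1044 to 1909 FPKM) and RPS24 (1283 to 1743 FPKM). The ranges pool libraries that these genes share. In every library RPL11 lay above RPS24, so the order of that pair held throughout. RPL11 and RPL8 changed places between libraries, with 1795 and 1764 FPKM at 0 h and 1943 and 2269 FPKM at 30 h.

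At the other end were RPS27 with 4.47 to 7.68 FPKM over the 22 libraries, RPL7 with 7.75 to 13.8, RPS10 with 7.93 to 16.2, RPS26 with 12.8 to 20.8 and RPL36A with 13.4 to 27.5. The ranges of RPS27 and RPL7 did not overlap, and those of the other neighbours in this order did. The highest mean, that of RPL11, was 285 times the lowest, that of RPS27. Members have many near-identical processed pseudogenes: 1132 annotated pseudogenes are named for 76 of the 79 members, with 91 for RPL23A, 74 for RPSA, 66 for RPL21 and 61 for RPL7. The 15 members under 100 FPKM had a median of 15 such pseudogenes and the 18 above 1000 FPKM a median of 4.5. Across the 79 members, which share the same libraries, mean FPKM and number of pseudogenes had a Spearman rho of -0.44. How reads that match several copies were assigned was not given in the sources used here, so the levels of single members are uncertain, and its part in the order of levels was not tested.

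Paralogues with symbols of their own were also present. RPS27L, a close copy of RPS27, had a median of 88.3 FPKM over the 22 libraries against 6.33 for RPS27. RPL39L had a median of 24.7 FPKM against 52.4 for RPL39. RPL36AL, outside the symbol rule, had a mean of 95.4 FPKM over 24 libraries against 17.4 for RPL36A. By the same mean, RPL22L1 had 64.7 against 78.0 for RPL22, and RPL7L1 67.2 against 10.7 for RPL7. Reads shared between such pairs make these ratios uncertain too.

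**Figure D1:**
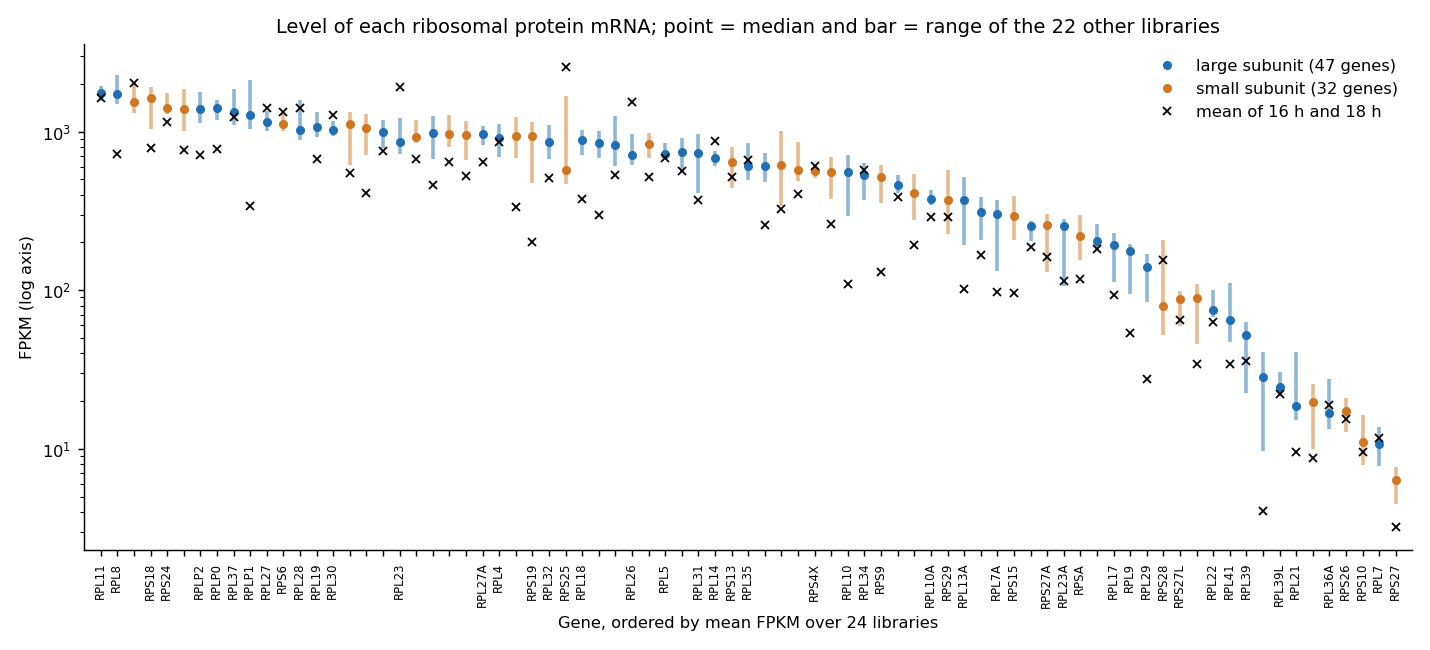
Level in FPKM (log axis) of the 79 ribosomal protein genes, ordered by mean, with the genes named in the text labelled. Points are medians and bars the range of the 22 libraries other than 16 h and 18 h, in blue for the large and orange for the small subunit, and crosses are the means of 16 h and 18 h. Bars run from 1560 to 1943 for RPL11 down to 4.47 to 7.68 for RPS27, and 49 crosses stand for genes whose 2 STRIPE values both lie below their bar.

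Outside the STRIPEs the mRNAs were stable. Over the 22 other libraries the highest value of a member was a median of 1.76 times its lowest. This ratio was smallest for RPL5, at 1.22. It was under 2 for 54 of the 79 members. The median standard deviation of log2(FPKM + 1) over these libraries was 0.20.

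As a check of the label, the erythroid list was present in full, with 11 of 11 genes at means of 60.4 to 2225 FPKM. Of the lymphoid and fibroblast markers, 2 of 5 and 1 of 5 were in the table, at no more than 7.05 FPKM. The table holds only genes that reached 1 FPKM in at least 12 libraries. Summed FPKM ranged from 456791 to 591309 and was highest at 18 h and 16 h. In the STRIPE libraries 102 and 115 genes were listed at 0, elsewhere 4 to 58, while no member was listed at 0 in any library. The FPKM of MALAT1, a nuclear long noncoding RNA, reached 11073 and 12319 in the STRIPE libraries and lay between 556 and 1593 in the others. The part of these library differences in the results below was not tested.

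To examine how the ribosomal protein genes behaved at the STRIPEs, their share of the summed FPKM was followed. It was 7.08% at 16 h and 6.71% at 18 h, against 9.22% to 12.0% in the other 22 libraries. It was 11.2% at 14 h and 10.8% at 20 h. FPKM is relative within a library, so less ribosomal protein mRNA and more of other RNAs cannot be told apart. The lowest of the other libraries was 32 h at 9.22%, which the study names as a milder STRIPE. At 6 h it was 10.5%, lower than at any other hour before 14 h. Both subunits contributed: the large-subunit sum went from 32840 FPKM before the STRIPEs (14 h) to 24319 and 23701, and the small-subunit sum from 22062 to 15763 and 15979. The ratio of large- to small-subunit sums was 1.54 at 16 h and 1.48 at 18 h, within the 1.39 to 1.60 of the other libraries. Its highest values were at 32 h (1.60) and 6 h (1.56). Without the 5 members of highest level it was 1.86 at 16 h, above the 1.56 to 1.84 of the other libraries, and 1.79 at 18 h, within them.

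**Figure D2:**
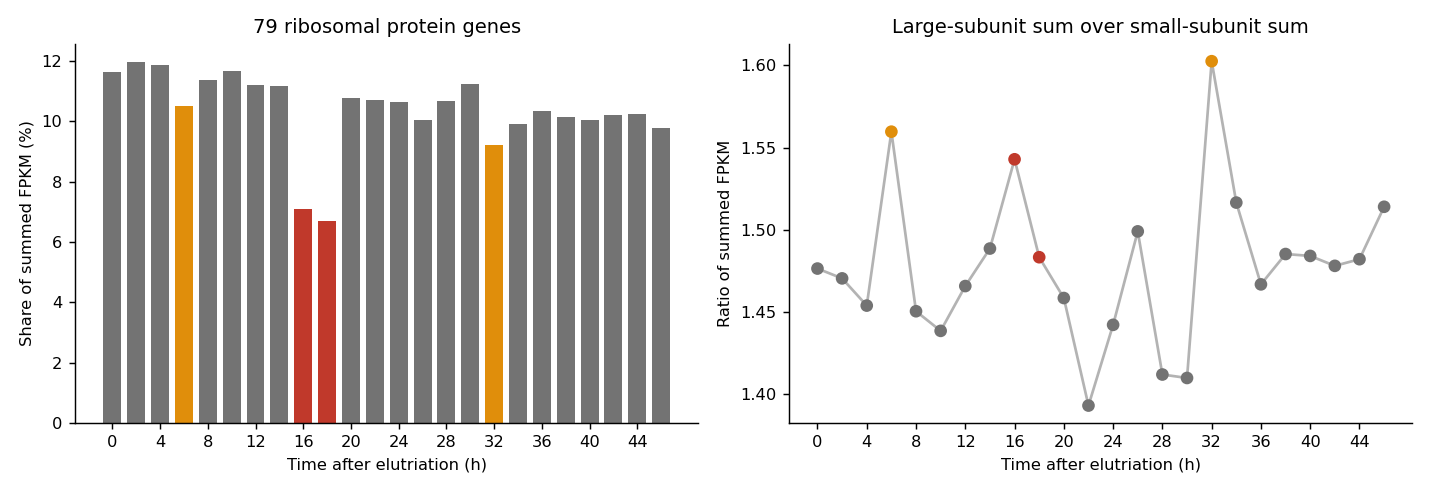
Left, share of summed FPKM taken by the 79 genes in each library (percent). Right, ratio of the large- to the small-subunit sum. STRIPE time points 16 h and 18 h are in red and 6 h and 32 h in orange. The share drops to 7.08% and 6.71% at 16 h and 18 h, while the ratio is highest at 32 h (1.60).

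Gene by gene, the response at 16 h and 18 h was measured on log2(FPKM + 1) as the mean distance from a line drawn through 14 h and 20 h, and a distance of 1 (2-fold) was counted. At least 2-fold below the line were 26 of 79 members, or 32.9%, against 7.11% of the 12253 genes that averaged 1 FPKM or more. At least 2-fold above were 2 members, or 2.53%, against 8.95% of all genes. The median distance was -0.71 for the members and 0.14 for all genes. There is no replicate and hence no test of these counts. The same measure at 16 other pairs of consecutive time points gave member medians of -0.25 to 0.30 and at most 2 members below and 2 above 2-fold. Of the members, 55 lay below their own range over the 16 other pairs, 10 above it and 14 inside. The share of all genes outside their own range is not given here, so these counts describe the members only. Both values lay under all 22 other libraries in 49 members (62.0%, against 19.7% of all genes) and over them in 8 (10.1%, against 30.9%).

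Among the members furthest below their flanks were RPL10, RPL29, RPS19 and RPS9. RPL10, which joins the 60S subunit in its last cytoplasmic step, had 684, 125, 93.0 and 604 FPKM in the 4 libraries from 14 h to 20 h, a distance of -2.56. RPL29 had 160, 30.7, 24.5 and 146 FPKM, a distance of -2.43. In both the STRIPE values lay under every other library.

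In the small subunit, RPS19, known for its mutations in Diamond-Blackfan anaemia, had 1060, 217, 188 and 979 FPKM, a distance of -2.33. RPS9, near the mRNA entry channel, had 537, 143, 119 and 517 FPKM, 4.01-fold below the line. Their lowest values in any other library were 476 for RPS19 and 352 for RPS9.

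At the opposite end lay RPS25, a small-subunit protein needed for translation from some viral internal ribosome entry sites. Its 4 values were 495, 2264, 2840 and 550 FPKM, a distance of 2.28, and it was the most abundant member at both STRIPEs. RPL23 had 904, 1891, 1925 and 847 FPKM, a distance of 1.12. RPS28 (0.98) and RPL26 (0.97) lay just inside the 2-fold threshold, and RPL31 (-0.99) was the nearest to it from the other side. RPL28 followed at 0.45, with 1098, 1440, 1377 and 968 FPKM.

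**Figure D3:**
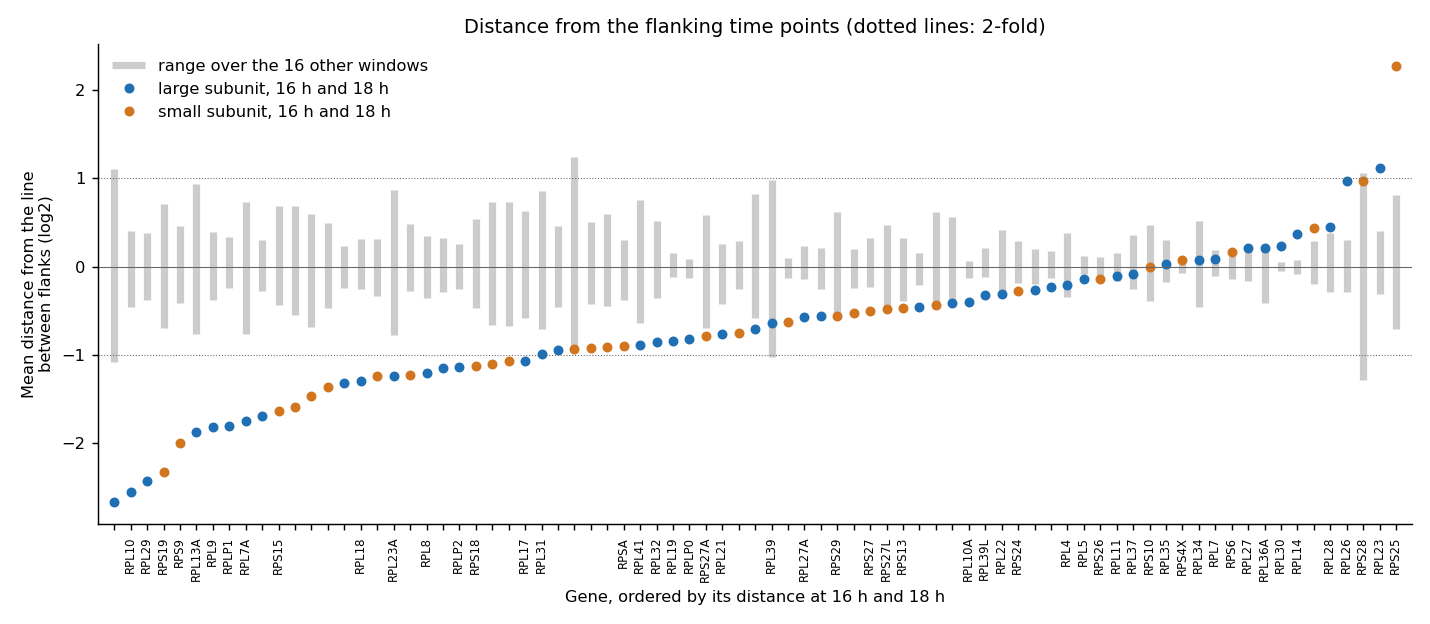
Mean distance of log2(FPKM + 1) at 16 h and 18 h from the line between 14 h and 20 h for each of the 79 genes, in order, in blue for the large and orange for the small subunit. Gray bars are each gene's range over the 16 other windows and dotted lines mark 2-fold. The genes named in the text are labelled, from RPL10 at -2.56 on the left to RPS25 at 2.28 on the right, with 26 under the lower and 2 over the upper dotted line.

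By subunit, 15 of 47 large- and 11 of 32 small-subunit members were at least 2-fold below the line, and 1 of each was 2-fold above. The medians were -0.64 and -0.77. Proteins that sit together in the ribosome did not share 1 value. In the acidic stalk that recruits translation factors, RPLP1 had a distance of -1.81, RPLP2 -1.14 and RPLP0 -0.83. RPLP1 had 1227, 336, 341 and 1148 FPKM from 14 h to 20 h. Around the exit of the peptide tunnel, RPL23A had -1.24, RPL17 -1.07, RPL31 -0.99, RPL19 -0.84, RPL39 -0.64, RPL35 0.03 and RPL26 0.97. The partners that bind 5S ribosomal RNA stayed close to their flanks, RPL5 at -0.14 and RPL11 at -0.10. RPS6, the substrate of S6 kinase, had 1254, 1337, 1321 and 1128 FPKM, a distance of 0.16.

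Ribosomal proteins that the symbol rule leaves out did not pass 2-fold in either direction (0 of 7, from -0.94 to 0.87). FAU, which encodes RPS30 fused to a ubiquitin-like protein, had a distance of -0.94. RPS27A, a member made as a fusion with ubiquitin, had -0.79. RACK1, a signalling scaffold of the 40S subunit, had -0.65. RPL26L1 had 0.87, on the same side of the line as its paralogue RPL26.

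The response differed in value from that of the other translation genes listed, a comparison for which no test was made. Of 23 elongation factors and other known TOP RNAs, none was 2-fold below and 5 were 2-fold above, with a median of 0.23. The nascent-chain factor BTF3 had 579, 2634, 3074 and 531 FPKM from 14 h to 20 h. The poly(A)-binding protein gene PABPC1 had 1925, 4429, 4849 and 1840 FPKM, and the elongation factor EEF1A1 had 638, 625, 640 and 646 FPKM. Of 26 ribosome assembly factors, 1 was below (EIF6, which keeps the subunits apart, at -1.27) and 3 above (RIOK1, SBDS and NOP58), with a median of 0.29. Of 14 genes of growth signalling to translation, 2 were below (EIF4EBP1 at -1.04 and RPS6KB2 at -1.03) and 2 above (MAX and RHEB), with a median of 0.45. Of 78 mitochondrial ribosomal proteins, 10 were below and 5 above, with a median of -0.15. The erythroid list had 7 of 11 below and 1 above, with a median of -1.20. Of the nuclear RNAs, MALAT1 lay at 3.59 and NEAT1 at -0.78.

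The distance also varied with base composition. Over all 12148 genes with a known sequence that averaged 1 FPKM or more, transcript GC content and the distance at 16 h and 18 h had a Spearman rho of -0.56, and over the 79 members -0.43. The third of members lowest in GC (42.1% to 47.6%) had a median of -0.31 and 3 of 27 below 2-fold. The third highest in GC (52.4% to 63.6%) had a median of -1.18 and 15 of 26 below. The median member had a GC content of 49.6% and a transcript of 705 bases, against 48.6% and 2520 for all genes. With a smooth trend in GC content and transcript length removed over all genes, the member median was -0.61, with 19 members at least 2-fold below, against 3.19% of all genes, and 4 above, against 5.18%. Of these, RPS25 (2.43) and RPL10 (-2.29) were past the threshold in both forms. Other features varied little with the distance: rho was -0.20 for protein length, 0.22 for the share of basic residues, 0.07 for mean FPKM and -0.10 for the number of pseudogenes. Members encode short, basic proteins, from the 25 residues of RPL41 to the 427 of RPL4, with a median of 21.8% lysine and arginine against 11.7% for all genes. These correlations share libraries and genes and are descriptions only.

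Smaller departures of the same members were present at 32 h and 6 h. At 32 h the median distance from the mean of both neighbours was -0.29, with -0.21 for the large and -0.46 for the small subunit, and at 6 h -0.21, against -0.10 to 0.27 at 16 other time points. At 32 h 4 members were at least 2-fold below their neighbours (among them RPL23A, RPL13A and RPL7A), against 1.01% of all genes, and 2 above (RPS28 and RPS25), against 0.449%. At 6 h 3 were below (among them RPL39 and RPS27A, against 0.865% of all genes) and 2 above (RPS25 and RPS28, against 0.571%). Across the 79 members the distance at 16 h and 18 h and that at 32 h, which use different libraries, had a Pearson r of 0.76 and a Spearman rho of 0.74. For 6 h these were 0.68 and 0.66. Over all genes r was 0.60 and 0.49. Of the 26 members 2-fold below at the STRIPEs, 25 lay below their neighbours at 32 h and 23 at 6 h, as did 66 and 50 of all 79. Of the 16 members above the line at the STRIPEs, 9 lay above their neighbours at 32 h and 13 at 6 h. The median distance of all genes was 0.03 at 32 h and 0.05 at 6 h. Their share below or above their neighbours is not given here, so these counts describe the members only. RPS25 had 555, 1527 and 565 FPKM from 4 h to 8 h, and 826, 1681 and 708 FPKM from 30 h to 34 h. RPS19 had 1114, 640 and 1117 FPKM, and 1015, 476 and 742 FPKM. RPLP1 was an exception: far below at 16 h and 18 h, it had its highest values at 6 h (2098 FPKM) and 32 h (1688 FPKM).

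**Figure D4:**
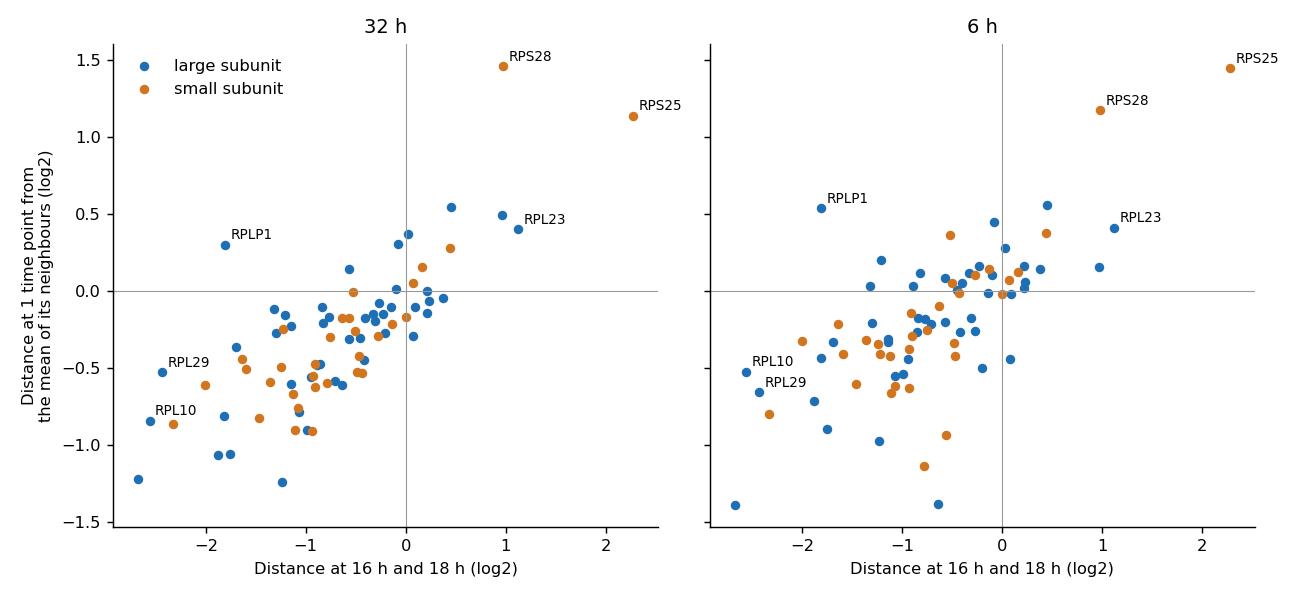
Distance of each member at 32 h (left) and 6 h (right) from the mean of its neighbors, against its distance at 16 h and 18 h, all in log2, in blue for the large and orange for the small subunit. The points rise together (Pearson r 0.76 and 0.68 over 79 genes), with RPS25 and RPS28 at the top, RPL10 at the lower left and RPLP1 off the trend.

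The likeness of the members' profiles was then measured outside the STRIPEs. Each member's log2(FPKM + 1) was correlated with the median profile of the other members. Over the 22 libraries without 16 h and 18 h the median r was 0.70, against -0.05 over all 12253 genes, and 40 of 79 members reached 0.7. The share of all genes that reached 0.7 is not given here or below. The median r was 0.72 for the 7 ribosomal proteins outside the symbol rule and 0.43 for the 78 mitochondrial ribosomal proteins. It was -0.005 for the 23 elongation factors and other known TOP RNAs. RPL18 (0.97) and RPL32 (0.95) were among those that followed the group most closely. The members least like it were RPS28 (-0.43), RPS25 (-0.30), RPL28 (0.01), RPL26 (0.11) and RPL39L (0.12). Of the 100 genes most like the members' profile, 25 were members. The 10 non-members most like it were COX7C (0.96), ANAPC11 (0.96), MRPL14 (0.95), NSUN5 (0.94), POLR2C (0.93), SNHG17 (0.93), TMEM126A (0.92), MRPS18B (0.92), MRPL54 (0.92) and CLP1 (0.91). With all 24 libraries the median r of members was 0.83, and the number below 0 went from 2 to 10. With 6 h and 32 h left out as well, a choice made after the data were seen, the median was 0.80, against 0.01 over all genes, 54 members reached 0.7 and 1, RPS28 (-0.05), was below 0. RPS25 then had 0.26.

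**Figure D5:**
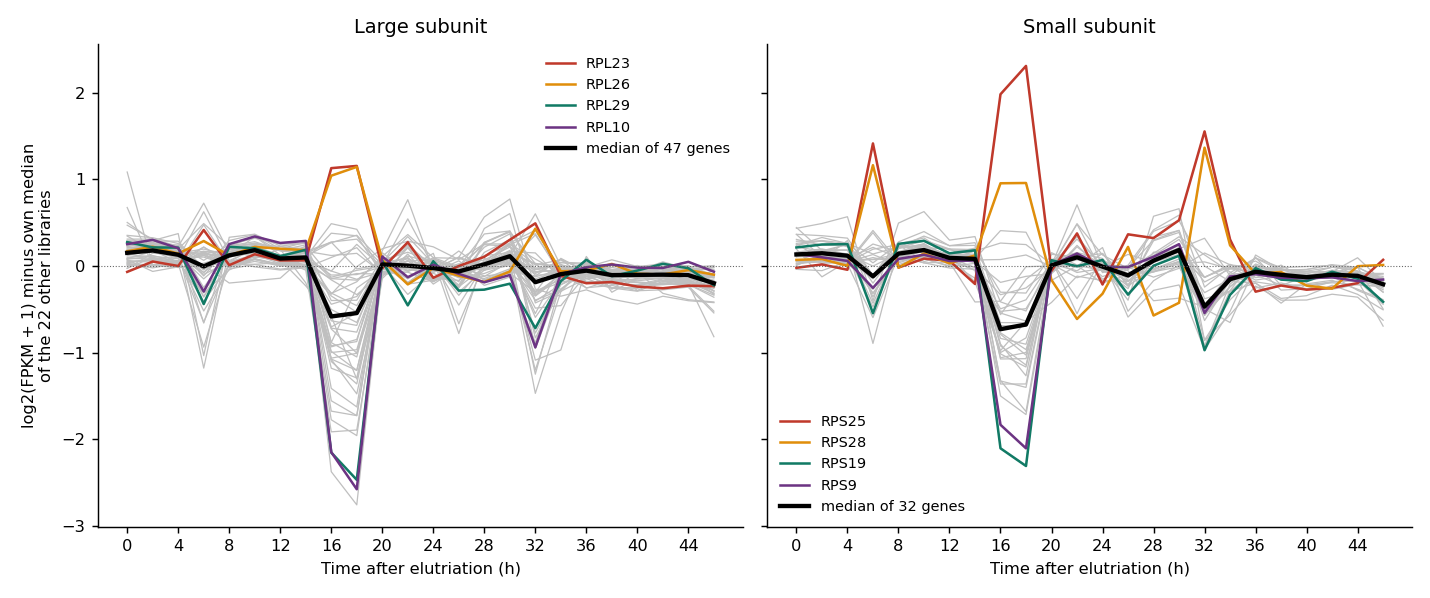
log2(FPKM + 1) of each member minus its median over the 22 other libraries, by time after elutriation (h), for the large (left) and small (right) subunit. Gray lines are single genes, the black line is the median and 4 genes per subunit are coloured. The medians reach -0.58 and -0.73 at 16 h, and RPS25, RPS28 and RPL23 mirror RPL10, RPL29 and RPS19 at 6 h, 16 h, 18 h and 32 h.

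To ask which members followed a 24 h order in time, JTK (a rank test against cosines of 12 phases, with a permutation p Benjamini-Hochberg adjusted over all 12285 genes) was used. It called 13 of 79 members at an adjusted p of 0.05, or 16.5%, against 11.9% of all genes, so the share was not far above the background. All 13 had their peak at 4 h or 6 h in the cycle, 5 and 8 of them, as did 35.1% of all genes called. These phases fall on 4 h, 6 h, 28 h and 30 h. From the mean of both neighbors, members had a median distance of 0.27 in the 30 h library and 0.09 in the 4 h library. This distance was 0.01 for 28 h and -0.21 for 6 h. Each of these hours borders another of them, and 30 h borders 32 h, so the distance also reflects the neighbors. Against each member's own median over the 22 libraries other than 16 h and 18 h, the medians were 0.13 at 4 h and -0.02 at 6 h. They were 0.03 at 28 h and 0.15 at 30 h. Of the 79 members, 20 had their highest value of the series at 30 h and 7 at 6 h. Among the 13 called, 11 had it at 6 h or 30 h. A maximum at these hours goes with the phases called, and the share among other genes called at these phases is not given here. Without 6 h, 28 h and 30 h, chosen after the data were seen, JTK called 3 members, all among the 13, against 5.40% of all genes. These are hours of the called peaks, so fewer calls without them are built in and say nothing further about the members. RPLP1 had a permutation p of 1.0e-05, the smallest that 100000 orderings can give, and an adjusted p of 0.0015. RPL8 (0.0081), RPL27A (0.012) and RPL37 (0.018) were also among those with the smallest adjusted p. RPL8 had 2013 FPKM at 6 h and 2269 at 30 h, with 819 and 621 FPKM at 16 h and 18 h. Without 16 h and 18 h, JTK again called 13 members, against 16.2% of all genes, but shared 6 with the former list (among them RPLP1, RPL8, RPL27A, RPL37 and RPL10A). No member passed the adjusted threshold at a period of 20 h.

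To compare the second with the first assumed cycle of 24 h, the 12 matched hours of each were fitted with limma, with the hour as a block, and p-values were adjusted over 12253 genes. Hours stand in for replicates here. limma called 5 members lower in the second cycle, or 6.33%, against 5.15% of all genes, and 0 higher, against 9.44% of all genes. An unadjusted p under 0.05 was reached by 18 lower members, or 22.8%, against 13.8% of all genes, and by 0 higher, against 16.8%. RPS29 went from a mean of 433 to 312 FPKM, a difference of -0.45 ± 0.14 (SE of log2, adjusted p = 0.044 by limma), and was lower in 10 of 12 hours. RPL34, at a mean of 454 FPKM in the second cycle, had a difference of -0.31 ± 0.09 (adjusted p = 0.026 by limma), lower in 11 of 12 hours. The others called were RPL35, RPL27 and RPL30, with 680 and 576, 1274 and 1105, and 1137 and 988 FPKM. RPL30, at 1010 to 1302 FPKM in the first cycle and 931 to 1081 in the second, was lower in all 12 matched hours although these ranges overlap.

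The STRIPEs fall in the first cycle. Without 16 h, 18 h, 40 h and 42 h limma called 21 members lower (26.6%, against 7.04% of all genes), 14 of the large and 7 of the small subunit, and all 5 of the first list were among them. In that fit 77 of 79 members had a negative difference, against 58 with all hours, and the median was -0.16 against 0.01 for all genes. With all hours the medians were -0.06 for members and -0.01 for all genes. The share of all genes with a negative difference is not given here. The largest called differences were those of RPS29 (-0.57 ± 0.13, SE), RPS15 (-0.32 ± 0.10), RPL34 (-0.31 ± 0.09) and RPS13 (-0.31 ± 0.07). The share of summed FPKM showed the same order: its median was 11.3% over the 10 hours of the first cycle other than 16 h and 18 h and 10.2% over the 12 of the second.

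The study deposited a second table in which the STRIPEs were corrected by Z-scoring each gene and quantile normalizing each library. In it the median score of the members was -0.99 at 16 h and -0.89 at 18 h, against 0.83 at 14 h and 0.52 at 20 h. The lowest value of a member was at 16 h or 18 h in 53 of 79 members (67.1%) in FPKM and in 26 (32.9%) in the corrected table, against 27.2% and 10.8% of all genes. The median score at 32 h was -0.95, and 18 members had their lowest corrected value there. RPS25 had scores of 0.80 and 1.09 at 16 h and 18 h, RPL10 -1.49 and -1.36. JTK called 7 members in the corrected table, against 11.6% of all genes, and all 7 were among the 13 called in FPKM.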

How the data were processed

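RNA from K562 cells was measured in 24 libraries, 1 per time point, assigned by their labels. The authors aligned reads with STAR and made FPKM values with Cufflinks and Cuffnorm on GRCh37, per the submitters' processing notes (versions and annotation: not given in the sources used here). The deposited second table holds a Z-scored, quantile-normalized score. Depth is unknown: low values of 1313 one-transcript genes lay at whole reads (within 0.1) for at most 38.0% of values in a library, and more often than with scrambled lengths in 11 of 24 libraries, so reads were not recovered.

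Symbols, gene types, GC content and length came from GENCODE 29 (12180 of 12285 identifiers) and start sites from RefSeq. Values were log2(FPKM + 1). Folds understate changes of low genes. Genes averaging 1 FPKM or more were used, which all 79 members passed. limma 3.58.1 (R 4.3.3) used a trend. JTK ran in Python 3.11.15. Both were tested on simulated data. Named members were the 5 highest and lowest by level, distance, JTK p, cycle difference and likeness, and paralogues. Some members this rule picks are not reported here. Genes of some roles were named after their values were seen. Members, lists, tests and alternatives were chosen with earlier results of these data known. Alternatives covered pseudocount, filter, scaling, GC trend, flanks, threshold, period, block and omitted hours.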

Additional observations from a re-analysis of the deposited data

How the results depend on the processing

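The member median at 16 h and 18 h stayed negative under each alternative run, from -0.94 to -0.61. Upper-quartile scaling gave -0.94 with 1 member at least 2-fold above, but moved the median of all genes from 0.14 to -0.06, so that relative to all genes the members lay at -0.84 as reported and -0.88 with that scaling. It gave 37 members below (10.6% of all genes), and median centring 32 (9.19%), against 26 (7.11%). Removing the GC and length trend left 4 above (5.18%), and 18 h alone gave 4 above (10.9%). At 1.5-fold 42 members lay below and 4 above. JTK called 0 members at 20 h, 4 at 28 h and 7 in the corrected table (11.6% of all genes), against 13 (11.9%). Added after the data were seen, it called 3 without 6 h, 28 h and 30 h, 9 without 22 h, 28 h and 30 h and 17 without 6 h and 32 h (5.40%, 11.6% and 11.1% of all genes). Members lower in the second cycle numbered 3 with upper-quartile scaling, 10 with median centring and 21 without 16 h, 18 h, 40 h and 42 h (7.04% of all genes), against 5 (5.15%). Leaving out 1 matched hour gave 3 (without 10 h and 34 h) to 9 (without 8 h and 32 h), and 0 higher throughout. Shares of all genes are not given for 1.5-fold or for periods of 20 h and 28 h. Nor are they given for the cycle comparison with scaling, centring, no hour block or 1 matched hour left out. Those counts describe the members only. Without the 5 highest members the share of summed FPKM was 5.93% at 16 h and 5.67% at 18 h (7.68% to 10.2% in the other libraries), and the ratio of subunit sums 1.86 and 1.79 (1.56 to 1.84). The ratio of median members was 1.14 and 1.08 (0.86 to 1.23). Causes were not tested. For single called members, 382 of 464 values under alternatives stayed past the threshold, 82 did not and none changed sign. The hour block changed the count of members lower in the second cycle from 7 to 5. Unknown depth and shared reads of near-identical copies limit single low members.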

Other observations

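A further set of hours, 22 h, 28 h and 30 h, chosen after the values were seen, differed from the hours around them. The mean log2(FPKM + 1) of these 3 libraries was set against that of 20 h, 24 h, 26 h and 34 h. The median difference of members was 0.17, with 0.12 for the large and 0.20 for the small subunit, against 0.03 for all genes. At least 1.5-fold higher were 3 members, against 1.18% of all genes, and 0 lower, against 0.963%. RPS23, a protein of the decoding centre, had 1006, 918 and 975 FPKM in these libraries and 308 to 733 in the other 21. RPL41, the shortest member, had 111, 96.2 and 111 FPKM, against 33.7 to 74.1. RPL37A had 1194, 1106 and 1246 FPKM, against 502 to 938. In all of these the 3 libraries lay above every other.

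RPS28 went the other way with 52.0, 53.5 and 59.3 FPKM in these 3 libraries. Of the 79 members, 20 had their highest value of the series at 30 h, and the share of all genes is not given here. In the same 3 libraries 2 identifiers with no GENCODE 29 entry were high: ENSG00000280102 had 9771, 7810 and 10275 FPKM against at most 1332 in the other libraries, and ENSG00000281255 had 5510, 4484 and 6158 against at most 843. Their part in the members' values was not tested.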
